A study of Rattus norvegicus with 325 samples.

Results

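Myostatin and activin signalling was followed through 8 genes, taken from the count tables by their symbols: the ligand genes Mstn, Gdf11, Inhba and Gdf5, the inhibitor genes Fst and Fstl3, and the receptor genes Acvr2a and Acvr2b. Of these 8 genes, 7 had a row among the 17315 distinct symbols of the tables, and Gdf5 was not analysed here. Each of the 7 had a single row, and each passed the filter on low counts in every muscle.

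Myostatin, the product of Mstn, is a member of the TGF-beta superfamily that muscle fibres secrete and that holds back muscle growth. Animals without it are heavily muscled. GDF11 is its closest relative, and activin A is a dimer of the protein that Inhba encodes. These ligands bind the type II receptors ACVR2A and ACVR2B, which recruit a type I receptor, and the complex phosphorylates Smad2 and Smad3 in the receiving cell. Follistatin, the product of Fst, and the related protein FSTL3 bind the ligands outside the cell and keep them from the receptors.

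The samples were whole muscles of male Sprague Dawley (SD) rats, an outbred strain, with no treatment, taken at 7 ages: 6, 9 and 12 months, then 18, 21 and 24 months, and last 27 months. The diaphragm, soleus, gastrocnemius and tibialis anterior gave 28 groups of 9 to 13 libraries, with 17.6 M to 85.3 M counts per library (median 31.9 M). All tissues of an age were collected on the same day, so that age and collection day cannot be told apart. The running numbers in the sample descriptions formed 3 series: the gastrocnemius libraries made up the first, and the 12-month libraries of the other muscles lay in the third. A comparison of the gastrocnemius with another muscle, or of 12 with 6 months elsewhere, can therefore not be told apart from a difference between number series. According to the paper, a muscle's number of samples equals its number of animals, so within a muscle p-values measure the spread between rats. The labels do not name the animal behind a library. Comparisons between muscles treated all libraries as independent, although muscles of an age may share animals. At 6 months the slow myosin gene Myh7 had its highest median in the soleus (47500 counts per M counts of a library, CPM) and the fast myosin gene Myh4 in the tibialis anterior (87500 CPM), against 8.38 CPM of Myh4 in the soleus.

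Levels are CPM scaled between libraries by the TMM method. Changes are log2 differences from 6 months fitted by limma-voom in each muscle, given with their standard error (SE). A gene was called when its Benjamini-Hochberg adjusted p was under 0.05 and its change exceeded 1.5-fold.

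At 27 months the limb muscles held less Mstn and more Fst than at 6 months, whereas no gene of the 7 was called in the diaphragm. In the tibialis anterior 5 of the 7 genes were called (Fst and Gdf11 higher, Mstn, Inhba and Acvr2b lower), against a background of 17.2% of all tested genes called higher and 10.4% called lower. In the soleus 4 were called (Fst higher, Mstn, Gdf11 and Inhba lower), with backgrounds of 9.21% and 5.78%. In the gastrocnemius 4 were called (Fst and Gdf11 higher, Mstn and Fstl3 lower), with backgrounds of 15.1% and 7.76%. In the diaphragm the backgrounds were 3.27% and 4.25%. By limma-voom 3 of the 7 genes (Inhba, Fst and Acvr2a) had an adjusted p under 0.05 there, but no change past 1.5-fold. None was called by edgeR or DESeq2 either.

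**Figure D1:**
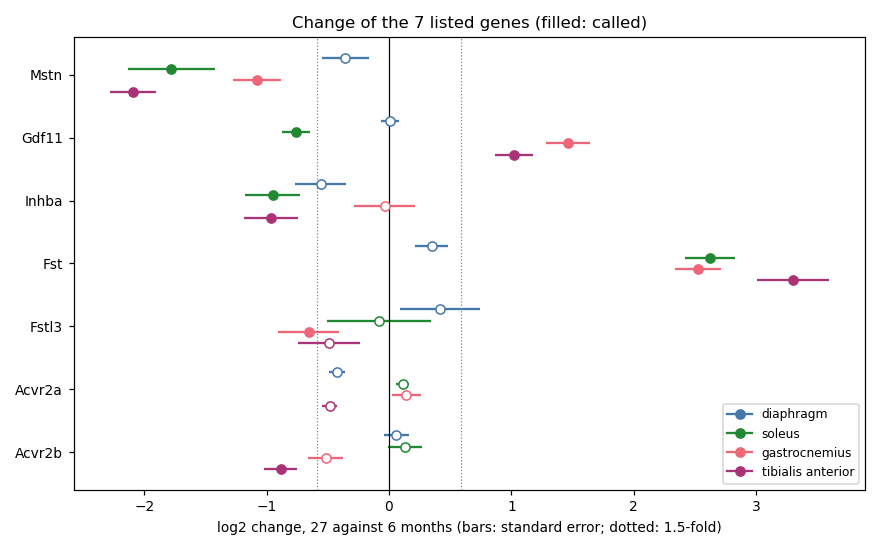
Fitted log2 change from 6 to 27 months of the 7 genes in each muscle, with the standard error as bars and the 1.5-fold threshold as dotted lines. Filled points were called. Fst lies furthest to the right in the 3 limb muscles (2.53 to 3.30), Mstn furthest to the left in the soleus and tibialis anterior, and Gdf11 lies on opposite sides of 0 in the soleus and in the other 2 limb muscles.

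Mstn was the ligand gene that differed most between muscles in young adult rats. At 6 months its level had a median of 16.7 CPM in the tibialis anterior (13.1 to 22.9, n = 12), 10.6 in the gastrocnemius (8.53 to 22.9, n = 10), 3.82 in the diaphragm (2.61 to 6.32, n = 12) and 2.17 in the soleus (0.230 to 3.26, n = 12). Levels were thus highest in the fast limb muscles and lowest in the slow soleus. The tibialis anterior exceeded the soleus by a log2 difference of 3.13 (SE 0.22, adjusted p = 1.46e-33) and the gastrocnemius exceeded it by 2.62 (SE 0.23, adjusted p = 3.83e-24). The diaphragm exceeded the soleus by 1.09 (SE 0.25, adjusted p = 6.04e-05). The tibialis anterior lay 0.51 above the gastrocnemius (95% interval 0.22 to 0.79, adjusted p = 0.00139), which did not pass the 1.5-fold threshold. Within the soleus at 6 months, replicate 4 stood apart at 0.230 CPM of Mstn.

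With age the Mstn level fell in the 3 limb muscles. In the tibialis anterior the median dropped from 16.7 CPM at 6 months to 8.64 at 18 months, 6.76 at 24 months and 3.59 at 27 months (2.38 to 11.2 CPM), and all 12 libraries of 27 months lay below all 12 of 6 months. The log2 change at 27 months was -2.09 (SE 0.19, adjusted p = 1.22e-16), a 4.27-fold decrease. The library of 27 months with the most Mstn was replicate 9, at 11.2 CPM, against 5.59 CPM in the next highest library. In the soleus the median dropped from 2.17 CPM to 0.506 CPM (0.268 to 1.39). The soleus groups overlapped, because the low 6-month replicate 4 lay under every library of 27 months, but all 12 libraries of 27 months lay below the mean of the 6-month group (log2 change -1.78, SE 0.36, adjusted p = 1.48e-05). Without this replicate 4 the change was -2.01 (adjusted p = 2.9e-08). In the gastrocnemius the median dropped from 10.6 to 5.60 CPM (3.66 to 6.39), with no overlap between the groups (log2 change -1.08, SE 0.20, adjusted p = 3.05e-06). In the diaphragm the medians were 3.82 CPM at 6 months and 3.19 at 27 months (1.95 to 4.50), the ranges overlapped, and the change of -0.36 (SE 0.19) did not pass the test (adjusted p = 0.123).

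The decrease of Mstn itself differed between muscles. It was larger in the tibialis anterior than in the diaphragm by a log2 difference of 1.78 (SE 0.28, adjusted p = 6.39e-09) and than in the gastrocnemius by 1.02 (SE 0.25, adjusted p = 0.000613). The soleus and the tibialis anterior were not told apart, with a difference of -0.31 and a 95% interval from -1.16 to 0.55. In the levels, the wide gap between muscles at 6 months had narrowed by 27 months between the tibialis anterior (3.59 CPM), the gastrocnemius (5.60 CPM) and the diaphragm (3.19 CPM), while the soleus stayed lowest (0.506 CPM).

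**Figure D2:**
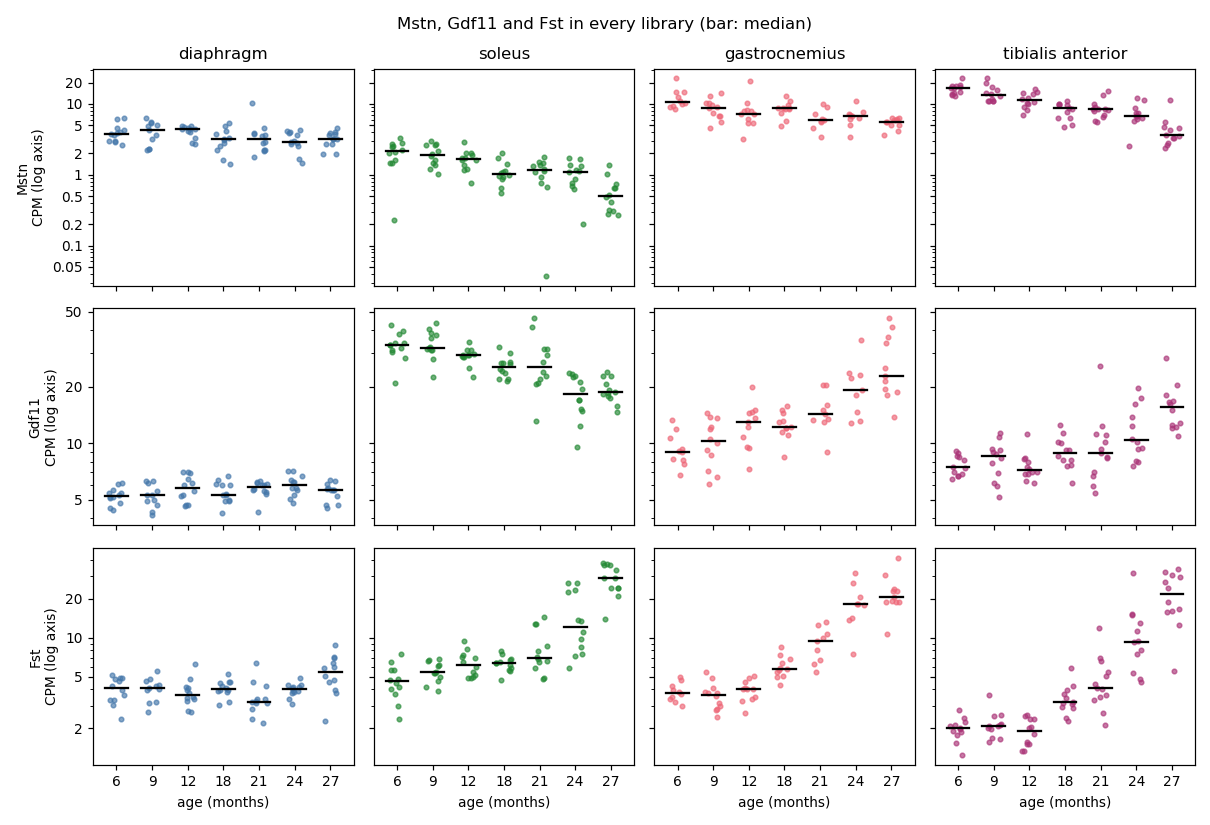
CPM of Mstn, Gdf11 and Fst on a log axis in every library, by muscle and age in months. Points are libraries and bars are group medians: Mstn descends from a median of 16.7 to 3.59 CPM in the tibialis anterior, Gdf11 descends from 33.2 to 18.6 CPM in the soleus but rises from 9.04 to 22.7 CPM in the gastrocnemius, and Fst rises from 4.62 to 28.9 CPM in the soleus.

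Gdf11, the closest relative of Mstn, showed another order of muscles and opposite changes among the limb muscles. At 6 months its median level was 33.2 CPM in the soleus (21.0 to 42.4), 9.04 in the gastrocnemius (6.78 to 13.3), 7.45 in the tibialis anterior (6.47 to 9.15) and 5.25 in the diaphragm (4.43 to 6.17). The soleus therefore held the most Gdf11 and the least Mstn. It exceeded the diaphragm by a log2 difference of 2.63 (SE 0.15, adjusted p = 4.88e-46) and the tibialis anterior by 2.10 (SE 0.14, adjusted p = 5.35e-38). The tibialis anterior and the gastrocnemius did not differ beyond their spread (difference -0.27, 95% interval -0.60 to 0.05). The tibialis anterior lay 0.53 above the diaphragm (adjusted p = 0.00394), under the 1.5-fold threshold.

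By 27 months Gdf11 had fallen in the soleus and risen in the gastrocnemius and tibialis anterior. The soleus median dropped to 18.6 CPM (14.6 to 23.8), and 9 of the 12 libraries lay below all libraries of 6 months (log2 change -0.76, SE 0.12, adjusted p = 5.91e-08). The gastrocnemius median rose to 22.7 CPM (13.8 to 46.2), with all 11 libraries above all 10 of 6 months (log2 change 1.47, SE 0.18, adjusted p = 1.02e-10). The tibialis anterior median rose to 15.6 CPM (10.9 to 28.5), again with no overlap (log2 change 1.02, SE 0.15, adjusted p = 9.9e-09). The diaphragm level was 5.66 CPM (4.53 to 6.37) and its change was 0.01 (SE 0.07, adjusted p = 0.96). The opposite directions were tested as differences of the changes: the gastrocnemius exceeded the soleus by a log2 difference of 2.23 (SE 0.19, adjusted p = 1.94e-24) and the tibialis anterior exceeded it by 1.79 (SE 0.19, adjusted p = 3.36e-17). The 27-month medians of the soleus and the gastrocnemius lay near each other, at 18.6 and 22.7 CPM.

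Inhba, which encodes the subunit of activin A, was a gene of low level, with medians of 0.290 to 1.87 CPM over the 28 groups. At 6 months its median was 1.54 CPM in the soleus (0.657 to 2.42), 1.05 in the diaphragm (0.472 to 1.44), 0.767 in the gastrocnemius (0.359 to 1.16) and 0.497 in the tibialis anterior (0.307 to 0.815). The soleus exceeded the tibialis anterior by a log2 difference of 1.5 (SE 0.21, adjusted p = 4.44e-11), whereas the tibialis anterior and the gastrocnemius were not told apart (95% interval of the difference -0.93 to 0.07). The soleus median of 27 months had dropped to 0.782 CPM (0.422 to 1.63) and the change was called (-0.95, SE 0.23, adjusted p = 0.000233). The tibialis anterior median dropped to 0.290 CPM (0.0717 to 0.586), with 6 of the 12 libraries below all of 6 months (log2 change -0.96, SE 0.22, adjusted p = 6.49e-05). The median count per library in that group was 9. In the gastrocnemius the medians were 0.767 and 0.659 CPM (log2 change -0.03, SE 0.25). In the diaphragm the change of -0.56 (SE 0.21, adjusted p = 0.0218) stayed just under 1.5-fold, and it passed that threshold when any of 8 single libraries was left out (replicates 3, 4, 5, 6 and 7 of 27 months and 1, 4 and 11 of 6 months), with values of -0.59 to -0.64. The change in the gastrocnemius differed from that in the soleus by 0.91 (SE 0.31, adjusted p = 0.0111). The difference between tibialis anterior and gastrocnemius was -0.92 (SE 0.39, adjusted p = 0.0625), and it was called with the replicate block (-0.78, adjusted p = 0.0486).

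Fst showed the largest changes with age among the 7 genes. At 6 months its median level was 4.62 CPM in the soleus (2.36 to 7.45), 4.09 in the diaphragm (2.35 to 5.21), 3.74 in the gastrocnemius (2.98 to 5.02) and 2.0 in the tibialis anterior (1.25 to 2.77). The levels of the soleus, diaphragm and gastrocnemius did not differ beyond their spread (soleus minus diaphragm 0.23, 95% interval -0.22 to 0.67, and gastrocnemius minus soleus -0.31, -0.79 to 0.18). The tibialis anterior lay below each of them, by 0.94 against the diaphragm (adjusted p = 0.00204), 1.16 against the soleus (adjusted p = 7.96e-05) and 0.86 against the gastrocnemius (adjusted p = 0.0105), on the log2 scale.

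At 27 months the Fst level had risen to 28.9 CPM in the soleus (13.9 to 37.6), 21.7 in the tibialis anterior (5.56 to 33.8) and 20.6 in the gastrocnemius (10.6 to 41.5). In each of these muscles every library of 27 months lay above every library of 6 months. The log2 changes were 3.30 in the tibialis anterior (SE 0.30, adjusted p = 7.35e-17), 2.62 in the soleus (SE 0.20, adjusted p = 5.65e-19) and 2.53 in the gastrocnemius (SE 0.19, adjusted p = 1.13e-18), or 9.86-fold, 6.15-fold and 5.75-fold. The lowest tibialis anterior library of 27 months was again replicate 9, which had the most Mstn of its group; it also held the least Gdf11 (10.9 CPM). Without this library the changes of Mstn, Gdf11 and Fst in the tibialis anterior were -2.21, 1.06 and 3.45. In the diaphragm the median was 5.44 CPM (2.29 to 8.77), with 6 of 12 libraries above all of 6 months and 1 below all of them (log2 change 0.35, SE 0.13, adjusted p = 0.0268), under the 1.5-fold threshold. The rise was larger than in the diaphragm by 2.91 in the tibialis anterior (SE 0.34, adjusted p = 1.49e-14), 2.22 in the soleus (SE 0.28, adjusted p = 7.67e-12) and 2.13 in the gastrocnemius (SE 0.31, adjusted p = 4.25e-10). Among the limb muscles no difference of the rises passed the adjusted threshold by limma-voom: the tibialis anterior differed by 0.69 from the soleus (95% interval 0.08 to 1.30, adjusted p = 0.0681) and by 0.78 from the gastrocnemius (0.13 to 1.43, adjusted p = 0.0691). Both differences were called by edgeR (0.83 and 0.87, adjusted p = 0.00568 and 0.00795), by DESeq2 (0.85 and 0.92, adjusted p = 0.00359 and 0.00368), with sample quality weights (0.72 and 0.78, adjusted p = 0.00919 and 0.0142) and with the replicate block (0.74 and 0.87, adjusted p = 0.00757 and 0.00421).

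Fstl3, the second inhibitor gene, was the least counted of the 7, with 4522 counts over all libraries and at most 45 in a single library. No count was found in 4 libraries (diaphragm 12 months replicates 0 and 7, soleus 12 months replicate 7 and soleus 24 months replicate 5), which allows levels of up to 0.0896 to 0.14 CPM there. At 6 months the medians were 0.62 CPM in the gastrocnemius (0.351 to 0.881), 0.549 in the tibialis anterior (0.149 to 1.04), 0.275 in the soleus (0.0651 to 1.13) and 0.239 in the diaphragm (0.0472 to 0.344). The gastrocnemius exceeded the soleus by 1.10 (SE 0.31, adjusted p = 0.000745) and the diaphragm by 1.66 (SE 0.34, adjusted p = 3.04e-06) on the log2 scale. The gastrocnemius and tibialis anterior did not differ beyond their spread (difference -0.20, 95% interval -0.74 to 0.35). The soleus and diaphragm were not told apart by limma-voom (0.57, -0.14 to 1.27), but the difference was called by edgeR (0.73, adjusted p = 0.0388), by DESeq2 (0.72, adjusted p = 0.0314) and with the replicate block (0.63, adjusted p = 0.0398). At 27 months the gastrocnemius median was 0.384 CPM (0.0466 to 0.616) and the decrease was called (-0.66, SE 0.25, adjusted p = 0.0195), but without replicate 6 of 27 months it was not (-0.48, adjusted p = 0.06), nor was it with total-count scaling (-0.37, or -0.69 relative to the median of all genes). In the tibialis anterior the change of -0.49 (SE 0.25, adjusted p = 0.0715) missed the threshold, and it passed without replicate 6 of 6 months (-0.62, adjusted p = 0.0165). The changes in the soleus (-0.08, SE 0.43) and diaphragm (0.42, SE 0.33) did not pass the test.

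Acvr2a encodes a type II receptor. Its median at 6 months was 40.3 CPM in the tibialis anterior (36.2 to 44.9), 35.8 in the soleus (31.7 to 38.8), 33.6 in the gastrocnemius (22.9 to 38.9) and 32 in the diaphragm (27.5 to 34.8), and no pair of muscles passed 1.5-fold. This order depends on the scaling: with total-count scaling the tibialis anterior median was 32.3 CPM, below the 35.4 CPM of the diaphragm, and the gastrocnemius lay below the soleus past 1.5-fold (-0.60, adjusted p = 2.37e-10). By limma-voom 5 of the 6 pairs had an adjusted p under 0.05, with differences of at most 0.36 on the log2 scale, and the gastrocnemius and diaphragm were not told apart (95% interval -0.17 to 0.13). At 27 months the tibialis anterior median was 30.2 CPM (20.7 to 35.1), with every library below every library of 6 months. The log2 change of -0.48 (SE 0.06, adjusted p = 1.01e-10) was a 1.40-fold decrease, under the threshold of 1.5-fold, and with total-count scaling it was -0.16, where the median of all genes lay at 0.34. The diaphragm median was 24.6 CPM (20.0 to 28.5), with all 12 libraries below the mean of 6 months (log2 change -0.43, SE 0.07, adjusted p = 1.86e-07), also under the threshold. The soleus (39.0 CPM, change 0.11, SE 0.06, adjusted p = 0.0784) and gastrocnemius (33.3 CPM, change 0.14, SE 0.12, adjusted p = 0.295) moved by less. The difference of the changes was called between the tibialis anterior and the soleus (-0.59, SE 0.10, adjusted p = 2.42e-07) and between the tibialis anterior and the gastrocnemius (-0.62, SE 0.11, adjusted p = 6.58e-07). Both lay close to the 1.5-fold threshold, and the former dropped under it with 6 other settings of test, scaling, weights or block (-0.42 to -0.58), the latter with 3 (-0.46 to -0.58).

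Acvr2b, which encodes the other type II receptor, varied more between muscles. Its median level at 6 months was 8.15 CPM in the gastrocnemius (4.58 to 11.4), 5.64 in the tibialis anterior (3.82 to 8.00), 4.66 in the diaphragm (3.33 to 5.60) and 2.38 in the soleus (1.57 to 5.00). The soleus was lowest, by 1.77 on the log2 scale against the gastrocnemius (SE 0.14, adjusted p = 8.58e-29) and 0.90 against the diaphragm (SE 0.15, adjusted p = 8.27e-09). The tibialis anterior lay 0.32 above the diaphragm (adjusted p = 0.0142) and 0.55 below the gastrocnemius (adjusted p = 1.56e-05), neither past 1.5-fold by limma-voom. The latter passed it by DESeq2 (-0.59, adjusted p = 1.25e-05). At 27 months the tibialis anterior median had dropped to 3.16 CPM (2.09 to 4.65), with 9 of 12 libraries below all of 6 months (log2 change -0.89, SE 0.14, adjusted p = 1.69e-08). With total-count scaling, under which the median of all genes rose by 0.34, the change was -0.54 (-0.87 relative to that median) and no longer past 1.5-fold. The gastrocnemius median was 5.32 CPM (4.17 to 8.90). Its change of -0.52 (SE 0.14, adjusted p = 0.00122) was under 1.5-fold and passed it without replicate 5 of 6 months (-0.61) or without replicate 1 of 27 months (-0.61). In the diaphragm (5.10 CPM, change 0.06, SE 0.10, adjusted p = 0.663) and the soleus (2.77 CPM, change 0.13, SE 0.14, adjusted p = 0.438) no change was called. The changes in the tibialis anterior and soleus differed by 1.01 (SE 0.21, adjusted p = 2.14e-05), with the lower value in the tibialis anterior.

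**Figure D3:**
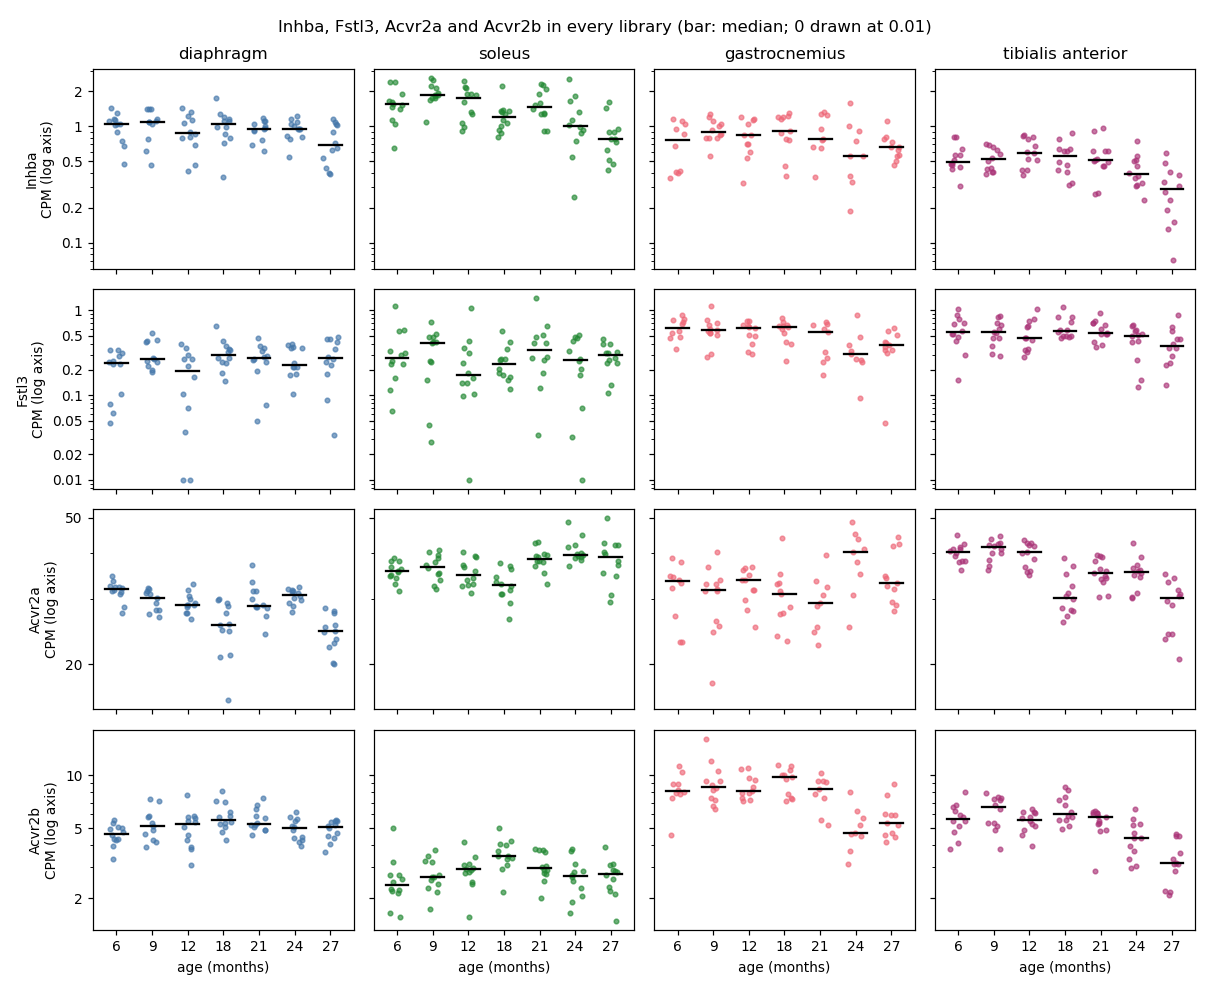
CPM of Inhba, Fstl3, Acvr2a and Acvr2b on a log axis in every library, by muscle and age in months, with bars at group medians and libraries with no count drawn at 0.01. Acvr2b descends after 21 months in the gastrocnemius and tibialis anterior (to 5.32 and 3.16 CPM at 27 months), and Fstl3 scatters widely at under 1.5 CPM.

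Over all 7 genes, 3 differed in level at 6 months between soleus and diaphragm (background 23.9% of all genes), 4 between gastrocnemius and diaphragm (37.3%), 4 between tibialis anterior and diaphragm (35.1%), 5 between gastrocnemius and soleus (45.4%), 6 between tibialis anterior and soleus (42.9%) and 1, Fst, between tibialis anterior and gastrocnemius (17.3%). The change from 6 to 27 months differed for 3 genes between soleus and diaphragm (background 11.9%), 5 between gastrocnemius and diaphragm (21.6%), 4 between tibialis anterior and diaphragm (20.3%), 3 between gastrocnemius and soleus (14.5%), 3 between tibialis anterior and soleus (15.8%) and 2, Mstn and Acvr2a, between tibialis anterior and gastrocnemius (7.32%).

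The ages between 6 and 27 months were compared with 6 months to see when each change was first called. At 9 months none of the 7 genes was called in any muscle by limma-voom, with backgrounds of 0.108% in the diaphragm, 0.123% in the soleus, 0.143% in the gastrocnemius and 0.00851% in the tibialis anterior. An unadjusted p under 0.05 was reached by 1 gene, in the gastrocnemius, and edgeR and DESeq2 called none at this age. At 12 months none was called either, with backgrounds of 0.532%, 0.353%, 0.885% and 0.196% in the same order. An unadjusted p under 0.05 was reached by 2 genes in the gastrocnemius and 1 in the tibialis anterior, and edgeR and DESeq2 called none. In the gastrocnemius Mstn was called at 12 months with RLE size factors (-0.65), with sample quality weights (-0.74) and in the joint fit (-0.65). At 18 months Mstn was called in the tibialis anterior (-1.03, SE 0.16, adjusted p = 3.6e-07, background 5.45%) and Fst in the gastrocnemius (0.68, SE 0.21, adjusted p = 0.0187, background 4.32%). At 21 months Mstn and Fst were called in all 3 limb muscles, and Gdf11 also in the gastrocnemius (0.67, SE 0.19, adjusted p = 0.00926). The backgrounds were 2.61% in the soleus, 5.81% in the gastrocnemius and 6.47% in the tibialis anterior. At 24 months Mstn, Gdf11 and Fst were called in all 3 limb muscles, and Fstl3 (-0.87, SE 0.28, adjusted p = 0.0069) and Acvr2b (-0.70, SE 0.16, adjusted p = 0.000119) also in the gastrocnemius, with backgrounds of 6.51%, 18.8% and 14.5%. In the soleus at 18 months (background 2.84%) and in the diaphragm at 18, 21 and 24 months (2.25%, 1.68% and 2.68%) none was called. By limma-voom 4 genes had an unadjusted p under 0.05 in the soleus at 18 months, and 4, 1 and 1 in the diaphragm at these ages. Some also had an adjusted p under 0.05, with changes under 1.5-fold. In the soleus at 18 months these were Acvr2b (0.528, adjusted p = 0.00166) and Gdf11 (-0.345, adjusted p = 0.0187). In the diaphragm they were Acvr2a (-0.354, adjusted p = 5.88e-05) and Acvr2b (0.36, adjusted p = 0.0046) at 18 months, and Acvr2b (0.33, adjusted p = 0.033) at 21 months. At 18 months edgeR and DESeq2 also called Mstn in the soleus (-0.88 and -0.89, adjusted p = 0.0092 and 0.00399) and Fst in the tibialis anterior (0.77 and 0.78, adjusted p = 0.00794 and 0.00311), as did the replicate block and sample quality weights, while edgeR and DESeq2 called none in the diaphragm at these ages.

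The median level of Fst was higher at each successive age from 12 months on in the limb muscles. In the gastrocnemius it was 4.02 CPM at 12 months, 5.78 at 18, 9.47 at 21, 18.1 at 24 and 20.6 at 27 months. The tibialis anterior medians were 1.93, 3.17, 4.12, 9.34 and 21.7 CPM at the same ages. In the soleus it was 6.21, 6.40, 7.02, 12.2 and 28.9 CPM. The soleus libraries of 24 months spread from 5.89 to 26.6 CPM, so that part of them lay within the 6-month range (2.36 to 7.45) and 4 lay above 22 CPM.

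**Figure D4:**
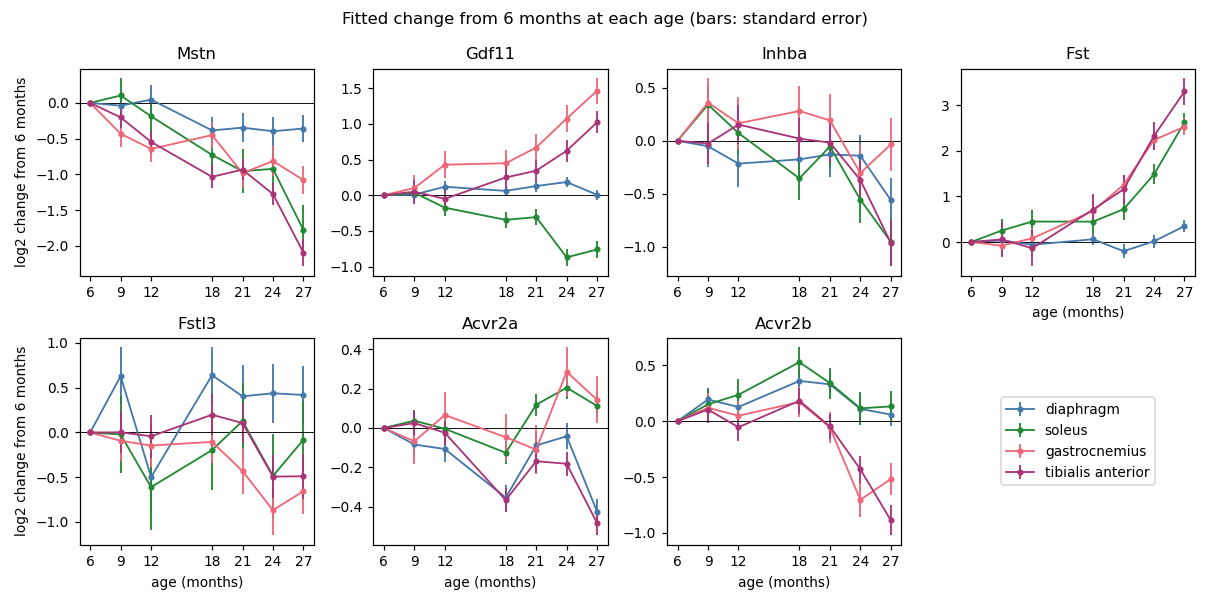
Fitted log2 change from 6 months at each age in months for the 7 genes, with standard errors as bars, 1 line per muscle. Mstn declines from 12 or 18 months on in the limb muscles, Fst climbs mostly after 18 months to 2.53 to 3.30, and the diaphragm lines of Mstn, Gdf11 and Fst stay within 0.5 of 0.

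Trends over the 7 ages were classed by the Bayesian information criterion (BIC) as none, linear or logistic, where a logistic gene changes around an inflection age, and a gene with both a trend and a call at some age was named age-related. By this rule 4 of the 7 genes were age-related in the soleus (background 12.6% of tested genes), 5 in the gastrocnemius (23.4%), 5 in the tibialis anterior (26.7%) and 0 in the diaphragm (6.71%). Mstn declined linearly in the 3 limb muscles. Fst rose in a late-logistic way in the 3 limb muscles, with inflections at 21.5 months in the gastrocnemius, 23.75 in the tibialis anterior and 27, the end of the searched range, in the soleus. Gdf11 fell linearly in the soleus, rose linearly in the gastrocnemius and rose late in the tibialis anterior (inflection 26.5 months). Acvr2b fell late in the gastrocnemius (21.5 months) and tibialis anterior (24.5 months). Inhba fell linearly in the soleus and late in the tibialis anterior (25.25 months), and Fstl3 fell linearly in the gastrocnemius. Acvr2a had a trend without any call in the diaphragm, soleus and tibialis anterior.

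The wider pathway was described through 83 other genes of the TGF-beta superfamily, its receptors, inhibitors, proteases, Smads and targets, of which 78 had a row and 66 to 69 were tested in a muscle. The tibialis anterior had 24 of 66 higher and 3 lower at 27 months, beside 17.2% and 10.4% of all tested genes. The gastrocnemius had 20 of 66 higher and 2 lower (15.1% and 7.76% of all genes), the soleus 18 of 67 higher (9.21%) and the diaphragm 7 of 69 higher and 1 lower (3.27% and 4.25%). In the soleus none was called lower by limma-voom. There 12 genes had a lower value with an unadjusted p under 0.05, and edgeR and DESeq2 called none lower. The median log2 change of the tested pathway genes was 0.26 (tibialis anterior), 0.11 (gastrocnemius), 0.17 (soleus) and -0.02 (diaphragm), beside 0.02, 0.04, 0.02 and 0.00 over all genes tested.

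The list of 9 target genes included the 4 Id genes and Atoh8, which respond to BMP signals, the E3 ligase gene Fbxo30, and Ctgf and Pmepa1, which respond to TGF-beta. The list was not split by whether a signal raises or lowers a gene, so its counts give no direction of signalling. All 9 were called higher in the gastrocnemius and in the tibialis anterior at 27 months, with median log2 changes of 1.32 and 1.27, where 15.1% and 17.2% of all genes were called higher. In the soleus (9.21% of all genes) 5 of 9 were called higher and in the diaphragm (3.27%) 2 of 9, among them Atoh8 (0.64, SE 0.14, adjusted p = 0.000127). In the gastrocnemius Fbxo30 rose by 2.01 (SE 0.20, adjusted p = 3.73e-14) and Id4 by 1.99 (SE 0.18, adjusted p = 3.55e-15). In the tibialis anterior Pmepa1, an inhibitor of TGF-beta signalling that the pathway itself induces, rose by 2.27 (SE 0.18, adjusted p = 3.69e-19).

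Among the other secreted inhibitors and binding proteins, the tibialis anterior had 4 of 15 called higher (17.2% of all genes) and 1 lower. The gastrocnemius had 3 of 15 higher and 2 lower (7.76% of all genes lower). In the soleus 4 of 15 were called higher (9.21% of all genes), and in the diaphragm 3 of 16 higher (3.27%) and 1 lower (4.25%). The share called higher in the gastrocnemius lay near the 15.1% of all genes, and the share called lower in the tibialis anterior under the 10.4% of all genes. Chrd, which encodes the BMP inhibitor chordin, had the largest rise of the pathway lists in the tibialis anterior (3.15, SE 0.23, adjusted p = 1.99e-21). Ltbp1, which encodes a protein that stores latent TGF-beta in the matrix, rose in the tibialis anterior (2.26, SE 0.15, adjusted p = 1.49e-22), the gastrocnemius (1.92, adjusted p = 2.27e-21) and the soleus (1.42, SE 0.13, adjusted p = 6.06e-16). Igsf1, an immunoglobulin superfamily gene, rose by 2.04 in the gastrocnemius (SE 0.16, adjusted p = 1.64e-17). Nog, which encodes the BMP inhibitor noggin, fell by 0.96 in the gastrocnemius (SE 0.12, adjusted p = 4.34e-10) and by 0.72 in the tibialis anterior (SE 0.13, adjusted p = 1.4e-06). Bambi, a membrane protein that acts as a decoy receptor, fell by 0.70 in the gastrocnemius (SE 0.13, adjusted p = 4.07e-06). In the diaphragm Chrdl1, of the chordin family, fell by 0.80 (SE 0.13, adjusted p = 6.38e-07).

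Of the other ligand genes, 6 of 13 were called higher in the tibialis anterior (17.2% of all genes) and 4 of 13 in the gastrocnemius (15.1%). In the soleus 5 of 14 were called higher (9.21% of all genes) and in the diaphragm 1 of 14 (3.27%). Bmp2 was called in the soleus (1.41, SE 0.16, adjusted p = 7.8e-12) and Bmp7 was the 1 called in the diaphragm (1.16, SE 0.17, adjusted p = 2.02e-08). Of 12 other receptor genes, 2 were called higher in each limb muscle, a share near the background of 17.2% in the tibialis anterior and 15.1% in the gastrocnemius. In the soleus this share of 16.7% lay above the 9.21% of all genes. Acvr1c, which encodes the type I receptor ALK7, rose by 1.46 in the soleus (SE 0.24, adjusted p = 1.91e-07). In the tibialis anterior 2 of the 12 receptor genes were called lower (10.4% of all genes), both of type I. They were Acvr1b, a partner of the type II receptors for activin and myostatin (-0.90, SE 0.08, adjusted p = 5.78e-17), and Acvr1 (-0.78, SE 0.06, adjusted p = 1.01e-18). The 12 Smad genes and regulators, of which 2 were called higher in each limb muscle, stood as near to these backgrounds, and the medians of this list were -0.15 in the tibialis anterior and -0.09 in the gastrocnemius.

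**Figure D5:**
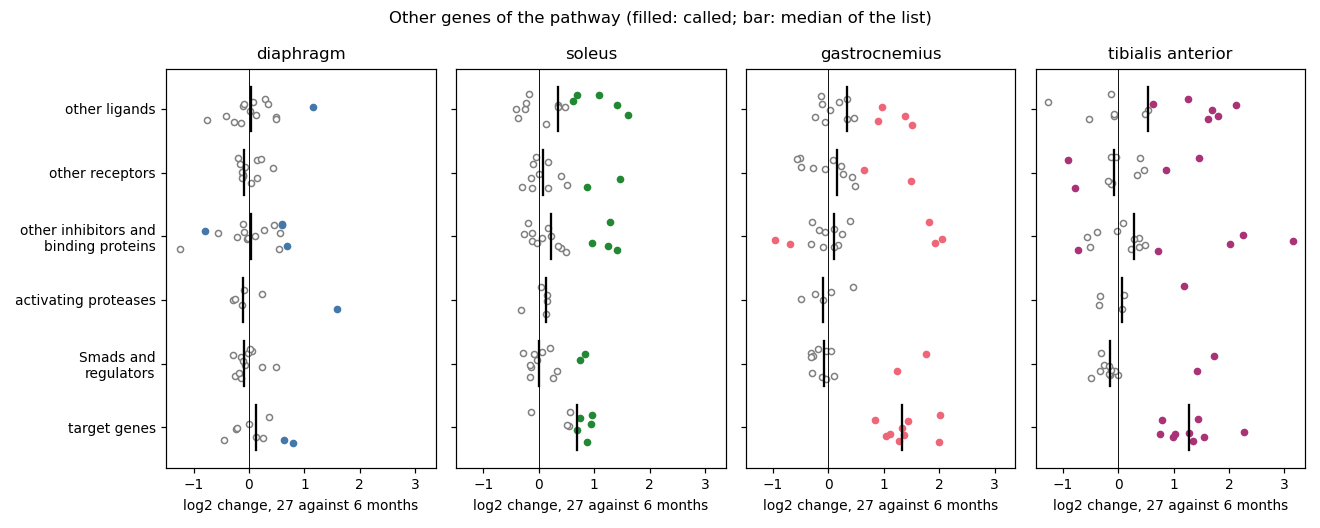
Log2 change from 6 to 27 months of the other pathway genes by list, 1 panel per muscle. Filled points were called and bars mark list medians. In the gastrocnemius and tibialis anterior all 9 target genes lie to the right of 0.5 (list medians 1.32 and 1.27), while in the diaphragm most genes of every list lie near 0.

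Marker lists of other states and cell types were also compared between 6 and 27 months. Of all tested genes, 17.2% (tibialis anterior), 15.1% (gastrocnemius), 9.21% (soleus) and 3.27% (diaphragm) were called higher. In the same order 10.4%, 7.76%, 5.78% and 4.25% were called lower. The 9 denervation-responsive fibre genes were all called higher at 27 months in each of the 4 muscles. Their summed level rose from a median of 71.5 CPM (57.1 to 91.8) to 1890 (720 to 3140) in the tibialis anterior, from 93.7 (84.8 to 112) to 1220 (507 to 1750) in the gastrocnemius, from 228 (202 to 247) to 1070 (354 to 1680) in the soleus and from 107 (90.5 to 151) to 219 (164 to 751) in the diaphragm. The 7 macrophage markers were all called higher in the gastrocnemius (summed median 115 CPM, 88.9 to 158, against 209, 171 to 302) and tibialis anterior (54.8, 41.7 to 65.2, against 151, 89.9 to 187), 1 of 7 was called higher in the soleus, and the diaphragm medians were 149 and 188 CPM. The summed level of 8 muscle fibre genes fell from a median of 224000 CPM (214000 to 240000) to 140000 (92300 to 209000) in the tibialis anterior and from 211000 (198000 to 258000) to 150000 (107000 to 198000) in the gastrocnemius. In the soleus the sum went from 96000 (87700 to 105000) to 73800 CPM (42800 to 105000), with 3 of the 8 genes called higher. In the diaphragm it went from 107000 to 113000 CPM, with 1 called higher. Of 5 adipocyte markers, 4 were called higher in each limb muscle. Of 5 satellite cell markers, 2 were called higher in each limb muscle, and 1 was called lower in the tibialis anterior. Of 7 fibroblast markers, 3 were called lower in the diaphragm. The summed level of 5 endothelial markers had lower medians at 27 months in each muscle (351 against 435 CPM in the tibialis anterior), with at most 1 of the 5 called lower. No listed marker was at 0 in every library. The part of these shifts in the changes of the 7 genes was not tested, and in whole muscle fewer cells of a type and less RNA per cell cannot be told apart.

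Genes whose levels ran most like each of the 7 over the 28 groups were sought by Pearson's r of group means of log2 CPM, as a description over groups that share muscles, and with no test. For Mstn these were Pdhx (r = 0.971), a component of the pyruvate dehydrogenase complex, Zcrb1 (0.97) and Phka1 (0.97), the muscle phosphorylase kinase subunit. For Gdf11 they were Car3 (0.959), a carbonic anhydrase abundant in slow muscle, RGD1309676 (0.95) and Pak4 (0.946). For Inhba they were Fzd9 (0.934), Has2 (0.93) and Dnaja4 (0.926). For Fst they were Erbb2 (0.97), a receptor tyrosine kinase, Fam110a (0.956) and the metallothionein gene Mt1a (0.955). For Fstl3 they were H2afy (0.919), Slc2a5 (0.912), the fructose transporter, and RGD1560212 (0.908). For Acvr2a they were Csnk1g3 (0.909), Sema3c (0.896) and Tra2b (0.894). For Acvr2b they were Bphl (0.968), Slc25a23 (0.966) and Syngr1 (0.965). Among the 7 genes themselves, the highest r was 0.792 (Mstn and Acvr2b) and the lowest was -0.597 (Mstn and Inhba).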

How the data were processed

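RNA of 325 rat muscle libraries was measured. Per the labels, total RNA libraries were strand-specific and depleted of ribosomal RNA; whether counting used strand is not given in the sources used here. The values deposited are unnormalized gene counts, which the authors obtained with the ArrayStudio pipeline and an in-house RefSeq gene model. The rat build they used was not at hand, so no coordinates or sequences are given. Lines of 1 symbol were summed (17870 lines, 17315 symbols). Depth limits the precision: Fstl3 had a median of 7 to 20 counts per library at 6 months, and the limits given for a count of 0 (3 counts) cover counting error only.

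Genes were kept with filterByExpr (minimum count 10, minimum total 15), scaled by TMM (edgeR 4.0.16) and fitted with limma-voom (limma 3.58.1, R 4.3.3), two-sided, 1 muscle at a time over its 7 ages, comparing every later age with 6 months; 11754 to 12175 genes were tested per muscle. Muscles were compared in 1 joint fit of all libraries (12784 genes). Calls needed a Benjamini-Hochberg adjusted p under 0.05 over all genes tested and a change over 1.5-fold. Trends needed a BIC over 6 below the null model, and a logistic form one over 2 below the linear model; inflections were searched in steps of 0.25 months. Levels in log2 CPM used a prior count of 0.5. On simulated counts for soleus (27 against 6 months, 12114 genes), 98% of genes changed 2-fold or more were called and 0.0252% of unchanged ones. The changed genes were drawn only from better-counted ones, so the 98% does not cover genes counted as little as Fstl3.

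Named pathway genes were the up to 3 largest called rises and falls per muscle at 27 months with a mean log2 CPM over 0 (Atoh8 in the diaphragm, outside this rule, was chosen after its values were seen). Some genes that the rule names are not reported here. Members, lists and tests were chosen with earlier results of these data known. Alternatives were RLE size factors, total-count scaling, no filter, edgeR's quasi-likelihood test, DESeq2 1.42.0, sample quality weights, Bonferroni adjustment, a 2-fold threshold, a replicate block, leaving out the third number series or single libraries, a joint fit and a stricter BIC margin.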

Additional observations from a re-analysis of the deposited data

Results flagged for a closer look

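The change from 6 to 27 months differed between muscles for 20 pairs of a gene and 2 muscles by the interaction contrast of limma-voom (log2 scale, first muscle minus second). For Mstn the differences were -1.48 (soleus minus diaphragm), -0.76 (gastrocnemius minus diaphragm), -1.78 (tibialis anterior minus diaphragm) and -1.02 (tibialis anterior minus gastrocnemius). For Gdf11 they were -0.82 (soleus minus diaphragm), 1.41 (gastrocnemius minus diaphragm), 0.97 (tibialis anterior minus diaphragm), 2.23 (gastrocnemius minus soleus) and 1.79 (tibialis anterior minus soleus). For Fst they were 2.22 (soleus minus diaphragm), 2.13 (gastrocnemius minus diaphragm) and 2.91 (tibialis anterior minus diaphragm). For Acvr2b they were -0.62 (gastrocnemius minus diaphragm), -0.99 (tibialis anterior minus diaphragm), -0.64 (gastrocnemius minus soleus) and -1.01 (tibialis anterior minus soleus). For Acvr2a they were -0.59 (tibialis anterior minus soleus) and -0.62 (tibialis anterior minus gastrocnemius), for Fstl3 -1.11 (gastrocnemius minus diaphragm) and for Inhba 0.91 (gastrocnemius minus soleus). The Fstl3 difference was no longer called with total-count scaling (-0.81, adjusted p = 0.125), without the filter on low counts (-1.07, adjusted p = 0.0805) or with Bonferroni adjustment, and the Mstn difference between gastrocnemius and diaphragm was not with total-count scaling (-0.48, adjusted p = 0.127), with Bonferroni adjustment or at the 2-fold threshold. With total-count scaling the Acvr2b differences of the gastrocnemius from the diaphragm (-0.33) and the soleus (-0.50) also lost their calls. Those with the gastrocnemius cannot be told apart from its number series.

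In the gastrocnemius at 6 months, replicate 5 had the lowest Acvr2b level, at 2.20 log2 CPM against 2.89 in the next library (n = 10), a gap of 0.527 of the range of the group. It was the 1 such library in 21 sets of values examined (7 genes in the 3 groups of 10 or fewer libraries), where chance flags about 1 set in 20. Without this library the decrease of Acvr2b in the gastrocnemius was -0.61 and passed 1.5-fold.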

How the results depend on the processing

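Of 301 recomputed changes from 6 to 27 months of single genes, 285 kept their direction and their side of the thresholds, 10 lost their call, 1 gained one and 5 reversed. The calls of Mstn and Fst in the 3 limb muscles and of Gdf11 in the gastrocnemius and tibialis anterior held under every alternative run and without any single library of 6 or 27 months. Across settings Mstn ranged from -2.10 to -1.74 in the tibialis anterior and Fst from 3.29 to 3.60. Gdf11 in the soleus lost its call at the 2-fold threshold, and Inhba in the soleus and tibialis anterior lost theirs there and with Bonferroni adjustment, Fstl3 in the gastrocnemius lost its call in both and with total-count scaling, and Acvr2b in the tibialis anterior at the 2-fold threshold and with total-count scaling. Acvr2b in the gastrocnemius gained a call with sample quality weights (-0.59). The reversals were all uncalled: with sample quality weights Acvr2a in the gastrocnemius (-0.011), Acvr2b in the diaphragm (-0.004) and Fstl3 in the soleus (0.11), and with total-count scaling Fstl3 in the soleus (0.074) and Inhba in the gastrocnemius (0.25). With total-count scaling the all-gene median at 27 months moved to 0.16 in the soleus, 0.32 in the gastrocnemius and 0.34 in the tibialis anterior, so relative to it Fstl3 and Inhba stood at -0.09 and -0.08. The share of called genes that were higher went from 61.4% to 77.7%, from 66.0% to 90.0% and from 62.4% to 89.1% in these muscles. It gave 3 age-related genes each in the gastrocnemius and tibialis anterior, 1 gene whose change differed between these muscles, and 1 and 0 pathway genes called lower there. The cause of these shifts was not tested.

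The 2-fold threshold left 3 of the 7 genes called at 27 months (tibialis anterior) and 2 (soleus); calls at 9 to 24 months numbered 1 in the soleus and 3 in the gastrocnemius (against 5 and 9), and age-related genes 2 (soleus), 3 (gastrocnemius) and 3 (tibialis anterior). At that threshold 2 genes differed in level between gastrocnemius and diaphragm, 2 between tibialis anterior and diaphragm and 0 between tibialis anterior and gastrocnemius; changes differed for 3 genes (gastrocnemius and diaphragm), 1 (gastrocnemius and soleus), 2 (tibialis anterior and diaphragm) and 1 (tibialis anterior and gastrocnemius). Pathway genes called higher fell to 2 in the diaphragm and 7 in the soleus, and those called lower to 0 in the diaphragm, gastrocnemius and tibialis anterior. With Bonferroni adjustment 2 calls at 9 to 24 months were left in the soleus and 3 in the gastrocnemius, 1 level difference between tibialis anterior and diaphragm and 0 between tibialis anterior and gastrocnemius, changes that differed for 2 (gastrocnemius and diaphragm), 1 (gastrocnemius and soleus), 1 (soleus and diaphragm) and 1 (tibialis anterior and gastrocnemius), and 3 pathway genes higher in the diaphragm. Both settings are stricter by construction. Level differences between soleus and diaphragm numbered 5 with DESeq2 and with edgeR, against 3, and those between tibialis anterior and gastrocnemius 2 with DESeq2. Pathway genes called lower in the diaphragm numbered 2 with DESeq2, edgeR, the joint fit and the replicate block, against 1.

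Counts over all genes moved most at early ages, under other settings: at 9 months up to 42 genes were called in the diaphragm, 211 in the soleus, 53 in the gastrocnemius and 29 in the tibialis anterior (against 13, 15, 17 and 1), at 12 months up to 116, 190 and 80 in the diaphragm, soleus and tibialis anterior (against 64, 43 and 23), and at 18 months up to 459 in the diaphragm (against 271). The 2-fold threshold left 248, 791, 1068 and 1470 of 905, 1825, 2708 and 3245 calls at 27 months (diaphragm, soleus, gastrocnemius, tibialis anterior).

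Leaving out single libraries of 6 or 27 months gave 0 to 1 of the 7 genes called in the diaphragm, 4 to 8 pathway genes higher and 1 to 2 lower there. The replicate block gave 5 level differences between soleus and diaphragm (against 3) and 4 changes that differed between tibialis anterior and gastrocnemius (against 2). For pairs of muscles, the shares of all genes called under other settings are not reported here. Whether the 7 genes moved more than all genes can therefore not be read from such counts. The numbers were not taken to pair libraries. Same-numbered libraries of 6 and 27 months correlated at medians of 0.01 to 0.071 of their deviations from group means, and the diaphragm, soleus and tibialis anterior at 6 months at medians of 0.167 to 0.278, with 7 to 10 of 12 libraries closest to their own number, while not every pair exceeded 0.1.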
